A study of Mus musculus with 6 samples.

Results

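Calcium enters muscle cells and their mitochondria through a small set of proteins, and the transcripts of 9 of them are described here in cultured muscle cells of Sfpq knockout and control mice: the inositol trisphosphate (IP3) receptors Itpr1, Itpr2 and Itpr3, the calcium sensors Stim1 and Stim2, the channels Orai1 and Orai3, and Mcu and Micu2 of the mitochondrial calcium uniporter. They were taken by name from the deposited values of 34656 genes or accessions, 3746 of them left without a gene name, of which 12461 were expressed highly enough to be tested, and all 9 passed that filter. Each was measured as 1 RefSeq transcript model, so splice forms of a gene could not be told apart. The main result is a negative one, with a precision known only for the spread between libraries, which may be partly technical. No member passed the test between genotypes, but neither did any other tested gene, Sfpq itself included, so not passing says little by itself. The 95% interval of the difference stayed within 2-fold in either direction for 7 of the 9. For the scarce Itpr1 and Itpr2 it reached down to 0.499 and 0.459 times control once converted from the tested scale of TPM + 1 back to TPM, the length-scaled transcript abundance deposited.

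Primary myoblasts, the precursor cells of muscle fibres, came from the skeletal muscle of male mice 1 month of age. The knockout mice (SfpqSM-KO, libraries labelled SFPQ_KO, n = 3) carry a knockout of Sfpq directed at skeletal muscle, and the other mice are labelled control (Cont, n = 3). The sources used here do not give the Cre driver, the deleted exons, the strain or the exact genotype of the controls. All cultures were expanded in 20% fetal bovine serum with basic fibroblast growth factor at 2.5 ng/mL and then held for 4 days in 2% horse serum, which drives myoblasts to fuse into myotubes. Sfpq is a nuclear RNA-binding protein of transcription and splicing, and the series' title ties its loss to long genes and to a metabolic muscle disease.

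Store-operated calcium entry refills the sarcoplasmic or endoplasmic reticulum after calcium has left it. IP3 receptors release calcium from the store, STIM proteins in its membrane sense the fall, and they then open ORAI channels in the plasma membrane. Part of the calcium passes on into mitochondria through the uniporter, whose pore is Mcu and whose calcium threshold is set by Micu proteins. In muscle this pathway supports myoblast differentiation and sustained contraction, and mitochondrial calcium stimulates energy metabolism.

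The libraries were alike in the number of genes detected and differed in Sfpq as labelled. Values are TPM, the number of transcripts of a gene per 1000000 in a library. Between 12216 and 12484 genes per library reached 1 TPM, and log2(TPM + 1) of any 2 libraries correlated across genes with a Pearson r of 0.966 to 0.987. Read depth is unknown, since TPM does not preserve it. Sfpq was at 14.1 to 19.3 TPM in the knockout libraries and at 48.6 to 60.5 TPM in the control libraries, with no overlap. The knockout mean was 0.325 times the control mean, so Sfpq transcript remained. Skeletal muscle markers summed to 57482 to 59043 TPM in knockout and 50835 to 53299 TPM in control over 9 genes, so the cultures were muscle and this sum was higher in each knockout library. The 7 fibroblast markers summed to 156 to 216 TPM in knockout and 198 to 294 TPM in control, with 6 of 7 reaching 1 TPM in some library. Myoblast markers (Pax7, Myf5 and Myod1) summed to 597 to 648 TPM in knockout and to 329, 671 and 562 TPM in control replicates 1, 2 and 3. Endothelial, adipocyte and Schwann cell markers were each under 1 TPM in sum, and of the leukocyte markers (1.15 to 2.13 TPM in sum) Ptprc and Adgre1 were listed at 0 throughout. The part of the muscle, myoblast and fibroblast differences in the values below was not tested. In RNA from whole cultures, fewer cells of a type and less RNA per cell cannot be told apart.

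The 9 transcripts covered a range from about the bottom to near the top of the expressed genes, with 4 steps at which the ranges of neighbours over the 6 libraries did not overlap: below Stim1, below Orai1, below Stim2 and below Orai3. Stim1 stood highest, at 274 TPM on average over the 6 libraries, above 95.8% of tested genes. Micu2 (141 TPM), Mcu (133 TPM) and Orai1 (125 TPM) followed at a common level: Micu2 exceeded Mcu in 5 of 6 libraries and Mcu exceeded Orai1 in 3 of 6, so this trio could not be ranked beyond its spread. Stim2 averaged 29.9 TPM and Orai3 19.8 TPM, Stim2 being the higher of the pair in 6 of 6 libraries with a lowest value of 21.9 TPM against a highest of 20.7 TPM for Orai3. The IP3 receptors came last. Itpr3 averaged 3.30 TPM and was above Itpr1 in 6 of 6 libraries, although its lowest library (2.23 TPM) lay under the highest of Itpr1 (2.41 TPM). Itpr1 (1.62 TPM) and Itpr2 (1.56 TPM) were not separable, with Itpr1 higher in 4 of 6, and both lay above only 6.50% and 5.97% of tested genes. TPM is scaled per transcript length, which is what allows levels of different genes to be set side by side.

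**Figure D1:**
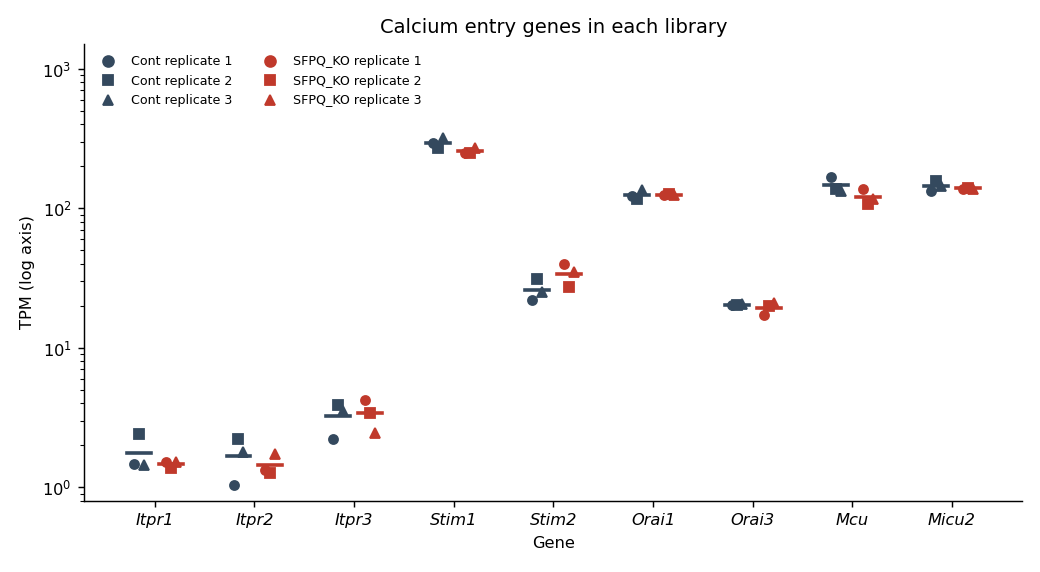
TPM of each gene on a log axis in the 3 control (dark) and 3 SFPQ_KO (red) libraries, with replicates 1, 2 and 3 as circle, square and triangle and the group mean as a bar. Groups overlap for all 9 genes, and the distance between genes, from 274 TPM for Stim1 to 1.56 TPM for Itpr2 on average, far exceeds that between genotypes.

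The genotypes were compared with limma, a linear model that shares information on the spread between genes, on log2(TPM + 1) over all 12461 tested genes with Benjamini-Hochberg adjustment. Of the 9 members, 0 passed an adjusted p of 0.05, where the background was 0% of all genes lower and 0% higher. Sfpq itself did not pass in this fit, with a limma adjusted p of 0.0531, the smallest value over all genes. At an unadjusted p under 0.05 there were also 0 of the 9 members, against 9.62% of all genes lower and 2.68% higher. The counts behind these shares, 1199 lower and 334 higher, became 662 lower and 787 higher after median-of-ratios scaling. The groups were free of overlap in 0 of 9 members, against 15.3% of all genes lower and 4.27% higher in knockout. The members' median log2 difference, knockout minus control, was −0.075, beside −0.069 for all tested genes. By sign alone 7 were lower and 2 higher, a split that turned into 4 lower and 5 higher after median-of-ratios scaling, and also without control replicate 2. The labels do not say whether the libraries of a group came from separate mice or cultures, so these p-values measure the spread between libraries, which may be partly technical.

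**Figure D2:**
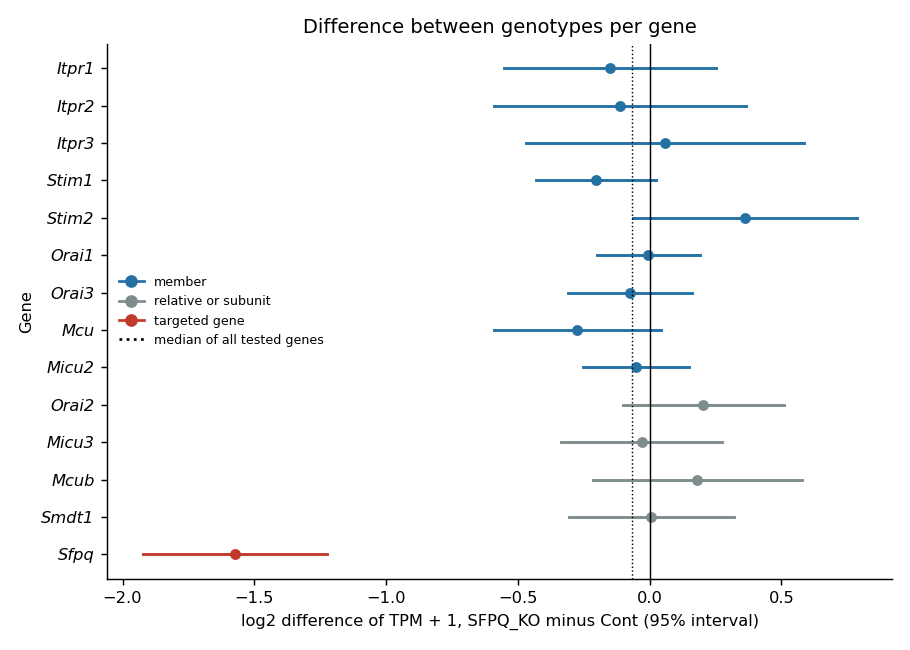
Log2 difference of TPM + 1, SFPQ_KO minus Cont, with limma's 95% interval (not adjusted for the number of genes) for the 9 members (blue), 4 related genes (grey) and Sfpq (red); the dotted line is the median of all tested genes, −0.069. Each blue and grey interval includes 0, and the interval of Sfpq runs from −1.92 to −1.22.

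The IP3 receptors, the tetrameric channels through which IP3 empties the calcium store, were scarce in both genotypes. Itpr1 (chromosome 6, 108213083 to 108551116 in GRCm38) stood at 1.52, 1.38 and 1.51 TPM in knockout replicates 1, 2 and 3 and at 1.47, 2.41 and 1.44 TPM in control replicates 1, 2 and 3. All libraries but control replicate 2 were therefore nearly equal. The log2 difference was −0.15 (SE 0.17, 95% interval −0.55 to 0.25), and without control replicate 2 it was 0.0063. Itpr2 (chromosome 6, 146108299 to 146502258) had 1.34, 1.27 and 1.74 TPM in knockout and 1.04, 2.21 and 1.80 TPM in control. The knockout values lay inside the range of the control values. Its log2 difference was −0.11 (SE 0.20), and control replicate 2 again decided the sign, with 0.031 in its absence.

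Itpr3, the IP3 receptor most abundant here (chromosome 17, 27057002 to 27122223), was at 4.25, 3.43 and 2.47 TPM in knockout and 2.23, 3.88 and 3.53 TPM in control. Both groups spanned nearly the same range, and the log2 difference was 0.058 (SE 0.22, interval −0.47 to 0.58). On the tested scale of TPM + 1 this is the least precise of the 9. Converted to TPM, the interval ran from 0.635 to 1.66 times control, and that of Itpr2 was relatively wider, from 0.459 to 1.47. The log2 difference of Itpr3 turned to −0.12 without control replicate 1 and to −0.083 without SFPQ_KO replicate 1. Summed over the 3 receptors, IP3 receptor transcripts reached 5.71 to 7.11 TPM in knockout and 4.74 to 8.50 TPM in control. Itpr3 made up 43.2% to 59.8% of that sum, with overlapping groups. The adjusted p of the 3 receptors in limma ran from 0.744 to 0.932.

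The STIM sensors pointed in opposite directions, and neither passed. Stim1, the main sensor of store depletion (chromosome 7, 102261514 to 102437319), was at 247, 246.6 and 269.9 TPM in knockout and at 293, 267 and 320.3 TPM in control. The groups overlapped only through knockout replicate 3, which lay just above control replicate 2. The log2 difference was −0.20 (SE 0.096, interval −0.43 to 0.025), with a limma p of 0.0734 and an adjusted p of 0.444. In terms of TPM + 1 that interval runs from 0.742 to 1.02 times control. After median-of-ratios scaling the difference was −0.12.

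Stim2, which responds to smaller falls in store calcium (chromosome 5, 53998523 to 54121057), was at 39.8, 27.03 and 34.6 TPM in knockout and at 21.9, 30.9 and 25.2 TPM in control. Knockout replicates 1 and 3 exceeded every control library, while knockout replicate 2 fell between the control values. The log2 difference of 0.36 (SE 0.18, interval −0.063 to 0.79) was the largest of the 9 in size, with a limma p of 0.0837 and an adjusted p of 0.461. It was 0.51 without SFPQ_KO replicate 2 and 0.24 without SFPQ_KO replicate 1. Control replicate 1, the library with the lowest myoblast marker sum, held the lowest Stim2 value, and without it the difference was 0.25. Stim2 made up 13.9%, 9.88% and 11.4% of STIM transcripts in knockout and 6.96%, 10.4% and 7.31% in control, so this share overlapped between genotypes as well.

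The ORAI channels, which form the calcium-selective pore opened by STIM, did not pass either, and Orai1 was the steadiest of the 9 genes. Orai1, the principal pore of store-operated entry (chromosome 5, 123015074 to 123030452), was at 123, 125 and 124 TPM in knockout and at 123, 117 and 135 TPM in control. The knockout libraries differed by 0.877% (coefficient of variation) around a mean of 124.4 ± 1.09 TPM (SD, n = 3), inside a control mean of 125.02 ± 9.53 TPM (SD, n = 3). The log2 difference was −0.0047 (SE 0.083), and in terms of TPM + 1 its interval runs from 0.870 to 1.14 times control. Its sign was positive after median-of-ratios scaling (0.078) and after quantile normalization (0.035). Orai3, a relative that can join Orai1 in mixed channels (chromosome 7, 127769815 to 127775150), was at 17.2, 19.9 and 20.7 TPM in knockout and at 20.1, 20.2 and 20.6 TPM in control. Knockout replicates 1 and 2 lay under the narrow control range and replicate 3 just above it. The log2 difference was −0.075 (SE 0.098, adjusted p = 0.780 in limma), and 0.0040 after median-of-ratios scaling. It rested on knockout replicate 1, without which it was −1.9e-05, and it was −0.13 without SFPQ_KO replicate 3.

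Orai2, the third ORAI gene, was of the same order as Orai3, with 21.8, 21.1 and 25.7 TPM in knockout and 18.4, 22.8 and 18.02 TPM in control (log2 difference 0.20, SE 0.13). That difference was 0.12 without SFPQ_KO replicate 3 and 0.31 without control replicate 2. Orai1 supplied 72.8% to 77.8% of the summed ORAI transcripts, and the sum itself was 162 to 171 TPM in knockout and 159.7 to 174 TPM in control. Of 10 sums, shares and ratios computed among these genes, 1 separated the genotypes. Among all tested genes, taken singly, 15.3% separated lower and 4.27% higher. The ratio of Stim1 to Orai1 was 2.01, 1.96 and 2.17 in knockout and 2.39, 2.29 and 2.37 in control. This ratio was singled out after its values were seen, and no test was made of it.

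**Figure D3:**
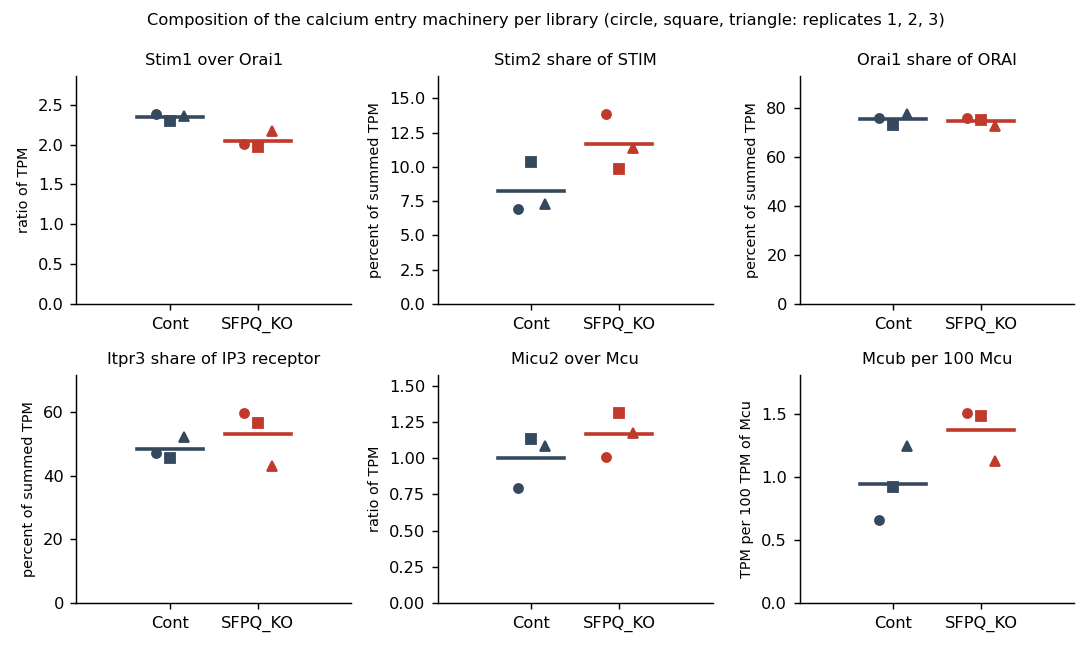
Ratios and shares of TPM per library (dark, Cont; red, SFPQ_KO; bars, group means), with axes from 0. The ratio of Stim1 to Orai1 lies at 1.96 to 2.17 in knockout and 2.29 to 2.39 in control, while the groups overlap in the other panels.

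Mcu, the pore-forming subunit of the mitochondrial uniporter (chromosome 10, 59446984 to 59617409), was at 137, 107 and 117 TPM in knockout and at 168, 137 and 132 TPM in control. Knockout replicates 2 and 3 were below each control library, while replicate 1 was level with control replicate 2 and above control replicate 3. The mean was 120.3 ± 15.4 TPM in knockout and 146 ± 19.1 TPM in control (SD, n = 3). The log2 difference was −0.27 (SE 0.13, interval −0.59 to 0.042), with a limma p of 0.0789 and an adjusted p of 0.453. Control replicate 1, low in myoblast markers, was the highest library for Mcu, and the difference was −0.17 without it. For Mcu and Stim2 it was the control library furthest from knockout, so leaving it out shrinks the difference by construction. The same library was also the lowest for Itpr2 (1.04 TPM), Itpr3 (2.23 TPM) and Micu2 (133 TPM). Whether its marker level bears on any of these values was not tested.

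Micu2, a gatekeeper that keeps the uniporter shut at resting calcium (chromosome 14, 57916280 to 57999296), was at 138, 140.3 and 137 TPM in knockout and at 133, 155 and 143 TPM in control. The 3 knockout values sat within the control range, and the log2 difference was −0.051 (SE 0.084, interval −0.25 to 0.15). It was 0.031 after median-of-ratios scaling and 0.0059 without control replicate 2. The ratio of Micu2 to Mcu was 1.01, 1.31 and 1.17 in knockout and 0.792, 1.13 and 1.09 in control, with overlap.

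Other uniporter genes ranged from far above to far below Mcu. Smdt1, which encodes the small subunit EMRE that links Mcu to its gatekeepers, averaged 398 TPM. Its exons overlap those of Pheta2 on the same strand, so its level is uncertain. Mcub, a pore relative that lowers uniporter current, was near the detection filter at 1.11 to 2.07 TPM, or 0.660 to 1.51 transcripts per 100 of Mcu. Micu3, a relative of Micu2, was at 2.63 to 3.46 TPM, and its exons overlap those of Fgf20 on the opposite strand. Over these 3 genes and Orai2 the adjusted p in limma ran from 0.556 to 0.989.

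Precision differed among the members and followed their level only in part. The residual SD on the log2(TPM + 1) scale was 0.077 for Orai1, 0.081 for Micu2, 0.095 for Orai3 and 0.11 for Stim1, each under the median of 0.16 over all tested genes. Mcu (0.18) and Itpr1 (0.19) were near that median. Stim2 and Itpr2 (0.26 each) and Itpr3 (0.31) lay above it, although Stim2 had 29.9 TPM and Orai3 only 19.8 TPM. The added 1 shrinks the spread of genes near 1 TPM, so the IP3 receptors are not directly comparable with the other members on this scale. In TPM the coefficient of variation was 5.38% in knockout and 30.8% in control for Itpr1, and 12.8% and 13.1% for Mcu. Itpr1 and Itpr2 are too low for a fall the size of that of Sfpq (log2 difference −1.57) to occur on the TPM + 1 scale. In TPM the knockout mean of Sfpq was 0.325 times control. The lowest lower bound of a member's interval in TPM was 0.459 times control, for Itpr2.

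The series' title names long genes, and by genomic span 5 of the 9 reach 100 kb or more, a cut chosen here. Itpr2 spans 394 kb, Itpr1 338 kb, Stim1 176 kb, Mcu 170.4 kb and Stim2 123 kb, while Micu2 (83.02 kb), Itpr3 (65.2 kb), Orai1 (15.4 kb) and Orai3 (5.34 kb) are shorter. Of the 2 members of 200 kb or more, 0 had the whole knockout group below the whole control group, against 34.1% of the 484 tested genes of that span. Of the 3 members of 100 to 200 kb, 0 did so, against 21.9% of 931 tested genes. Itpr1 (−0.15) and Itpr2 (−0.11) lay above the median log2 difference of their class, −0.20, and within its quartiles, −0.42 to −0.020. In the class of 100 to 200 kb (median −0.12, quartiles −0.26 to 0.034) Stim1 lay inside the quartiles at −0.20. Mcu, at −0.27, lay just below them and Stim2, at 0.36, above. With so few members per class no more can be read from these counts.

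**Figure D4:**
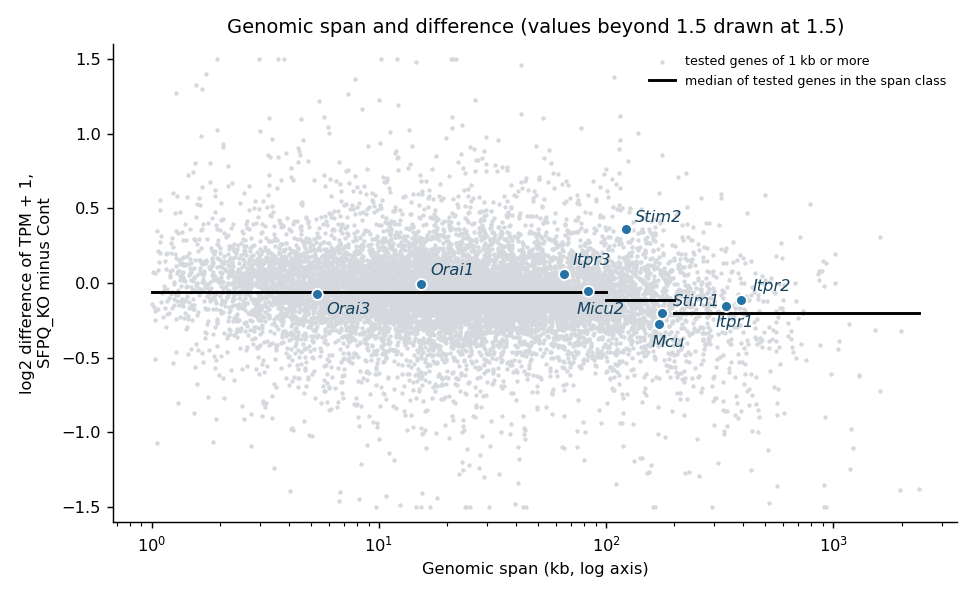
Log2 difference of TPM + 1, SFPQ_KO minus Cont, against genomic span (log axis) for tested genes of 1 kb or more (grey), with the 9 members in blue and the median of tested genes in 3 span classes as black lines at −0.061, −0.12 and −0.20. Itpr1 and Itpr2, the longest members, lie above the line of their class, and Stim2 stands at 0.36.

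No member shares exonic bases with another protein-coding gene in the GENCODE annotation, and 3 of 9 (Itpr1, Itpr3 and Orai1) share some with noncoding genes. For those 3 the reads of the partner cannot be told apart, since the sources used here do not say whether strand was used.

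The genes whose levels most resembled those of Stim1, the member with the smallest p, were Capzb, which encodes a capping protein of actin filaments (Pearson r = 0.988, Spearman rho = 0.943), Zfp787 (r = 0.984, rho = 1) and Snx14, a sorting nexin (r = 0.983, rho = 0.886). They were ranked over 6 libraries on the log2(TPM + 1) scale among all tested genes. With so few libraries and so many genes, correlations this high can arise by chance, and no test was made of them. Capzb was at 272, 269 and 282 TPM in knockout and 289, 282 and 298 TPM in control, a narrower span than that of Stim1. Its groups did not overlap, and its log2 difference of −0.079 (SE 0.073) was close to the median of all genes.

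Among partners of store-operated entry, 8 of 17 genes found in the files were tested, and 0 passed over all genes. By sign 7 were lower and 1 higher, beside 64.5% of all tested genes lower, and the median log2 difference was −0.062. At an unadjusted p under 0.05, 1 gene was lower, beside 9.62% of all genes. After median-of-ratios scaling the split by sign was 3 lower and 5 higher. In 2 of the 8 the groups did not overlap, both lower, where the background was 15.3% lower and 4.27% higher. Homer1, a scaffold that binds IP3 receptors and other calcium channels, was at 7.07, 6.42 and 7.27 TPM in knockout and 10.3, 9.62 and 9.85 TPM in control. The groups were well apart, with a log2 difference of −0.46 (SE 0.099) and a limma adjusted p of 0.178. Septin2, a filament protein that organises the plasma membrane around STIM and ORAI, was the other, at 76.8 ± 5.15 TPM against 84.3 ± 2.03 TPM (SD, n = 3). Stimate, which promotes STIM1 at membrane junctions, was at 4.32 ± 0.48 and 5.60 ± 1.15 TPM, with overlap. The TRPC channels Trpc1, Trpc4 and Trpc6, candidate partners of STIM1, were below the filter, with Trpc1 the highest of the 3 at 0.631 to 0.896 TPM.

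Of 17 genes that make or remove IP3 or bind or regulate its receptors, 13 were tested and 0 passed. By sign 8 were lower and 5 higher, beside 64.5% of all tested genes lower, with a median log2 difference of −0.10. Median-of-ratios scaling gave 7 lower and 6 higher, with 48.5% of all genes lower. At an unadjusted p under 0.05, 1 was lower, beside 9.62% of all genes. Groups were free of overlap in 1 of the 13, lower, beside 15.3% of all genes lower and 4.27% higher. Plce1, a phospholipase C activated by Ras proteins, had groups that did not overlap, 2.87, 2.16 and 1.86 TPM in knockout against 3.38, 4.43 and 3.75 TPM in control (log2 difference −0.56, SE 0.16, limma adjusted p = 0.282). Plcb4, a phospholipase C driven by G proteins, was at 20.6 ± 1.45 against 28.2 ± 7.27 TPM, and control replicate 1 (20.1 TPM) lay among the knockout libraries. Plcg1, the form driven by tyrosine kinases, was at 48.7 ± 4.69 and 55.2 ± 4.78 TPM, and Ahcyl1, an inhibitor that binds IP3 receptors, at 34.2 ± 3.60 and 38.9 ± 1.63 TPM (SD, n = 3).

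Mitochondrial calcium genes outside the 9 members did not pass either. Of 12 tested, 10 were lower by sign and 2 higher, beside 64.5% of all tested genes lower by sign, and the median log2 difference was −0.18. At an unadjusted p under 0.05, 4 were lower and 0 higher, where the background over all genes was 9.62% lower and 2.68% higher. After median-of-ratios scaling the split by sign was 9 lower and 3 higher, with 48.5% of all genes lower, and 0 of the 12 had an unadjusted p under 0.05. The 4 do not belong to the uniporter itself. Vdac2 and Vdac3, channels of the outer mitochondrial membrane through which calcium and metabolites pass, were at 344 ± 26.5 against 406 ± 7.52 TPM and at 172 ± 6.50 against 225 ± 34.2 TPM (SD, n = 3). Both had groups that did not overlap, with log2 differences of −0.24 (SE 0.088) and −0.38 (SE 0.12). Letm1, a cation exchanger of the inner membrane, was at 59.4, 57.3 and 57.5 TPM in knockout and 68.1, 62.96 and 71.0 TPM in control, again without overlap. Groups without overlap thus numbered 3 of the 12, all lower, beside 15.3% of all genes lower and 4.27% higher. Ghitm, an inner membrane protein also called Tmbim5, was at 162 ± 35.3 and 222 ± 33.01 TPM with overlap. The limma adjusted p of these 4 ran from 0.330 to 0.387. Whether they differ from the uniporter subunits was not tested.

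Downstream of calcium entry, calcineurin dephosphorylates NFAT transcription factors, and CaMKII and calmodulin pass on the same signal. All 17 genes of this list were tested and 0 passed. By sign 11 were lower and 6 higher, beside 64.5% of all tested genes lower, and the median log2 difference was −0.11. Median-of-ratios scaling gave 9 lower and 8 higher, with 48.5% of all genes lower. At an unadjusted p under 0.05, 2 were lower and 1 higher, beside 9.62% of all genes lower and 2.68% higher. The groups did not overlap in 3 lower and 3 higher genes, beside 15.3% of all genes lower and 4.27% higher. Ppp3ca, a catalytic subunit of calcineurin, was at 37.8, 32.5 and 34.7 TPM in knockout and 54.4, 45.9 and 46.6 TPM in control. Its groups did not overlap, and it spans 268 kb (log2 difference −0.47, SE 0.10, limma adjusted p = 0.184). The NFAT genes at either end of the list went opposite ways: Nfatc2 was at 10.6, 6.26 and 6.07 TPM in knockout and 3.25, 3.67 and 4.48 TPM in control. Nfatc4 was at 0.795, 1.98 and 1.10 TPM in knockout against 2.80, 2.76 and 2.70 TPM in control. Both had groups that did not overlap, with log2 differences of 0.82 (SE 0.22) and −0.74 (SE 0.20) and adjusted p of 0.264 and 0.266 in limma. Camk2g, a CaMKII subunit, was at 73.7 ± 6.39 and 84.4 ± 2.86 TPM (SD, n = 3), also without overlap. The other two genes without overlap were higher in knockout and are named after their values were seen. Camk2a, another CaMKII subunit, was at 93.3, 81.98 and 79.5 TPM in knockout and 66.3, 78.5 and 79.4 TPM in control (log2 difference 0.18, SE 0.11), the groups nearly touching. Calm3, a calmodulin gene, was at 242 ± 2.06 against 224 ± 11.8 TPM (SD, n = 3), a log2 difference of 0.11 (SE 0.076). Across the 4 lists, 9 of 50 tested genes had groups that did not overlap with knockout lower and 3 with knockout higher, or about the background shares of 15.3% and 4.27% given above. All 3 of the higher genes belong to the list of calcineurin, NFAT, CaMKII and calmodulin, which was seen only afterwards and was not tested.

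**Figure D5:**
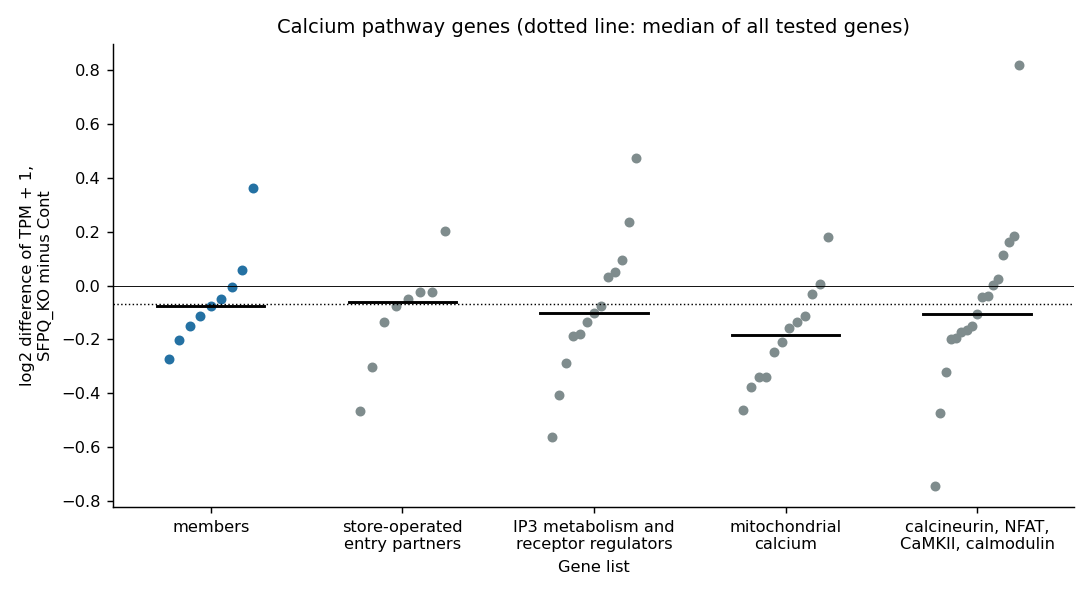
Log2 difference of TPM + 1, SFPQ_KO minus Cont, of each tested gene, sorted within the 9 members (blue) and 4 lists of related calcium genes (grey), with the list median as a bar and the median of all tested genes (−0.069) dotted. List medians are −0.075 for the members and −0.062, −0.10, −0.18 and −0.11 for the lists in order.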

How the data were processed

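Polyadenylated RNA was sequenced as 3 SFPQ_KO and 3 Cont libraries on an Ion Proton, and groups were taken from the sample titles. The authors deposited TPM, 1 value per RefSeq accession and library, summing to 1000000. STAR 2.4.1d and mm10 were used, per the submitters' processing notes, while the counting tool, annotation release and strand setting are not given in the sources at hand. Of 34671 accessions, 30822 were named through RefSeq genes of GRCm38.p6 and 103 through GENCODE, and TPM was summed per symbol. Spans and coordinates, counted from 1, come from that RefSeq table.

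A gene was tested if 3 or more libraries had it at a TPM of 1 or more, and limma 3.58.1 was run on log2(TPM + 1) (R 4.3.3, intensity trend, 2-sided, Benjamini-Hochberg at 0.05), a scale that understates changes of low genes. The test was run on simulated data first. Python 3.11.15 was used for joins and plots. Members and lists were chosen with earlier results of these data known. Named genes are all members, 4 relatives, Sfpq, up to 4 genes per list with the smallest p, and the 3 genes most correlated with the member of smallest p. Markers, 3 Trpc genes below the filter, Camk2a, Calm3 and genes that overlap others are named beyond that rule. Not every gene named by this rule is reported here. Of the listed genes, Vdac1 and Gramd2a were not analysed here. Alternatives covered pseudocounts of 0.1 and 5, filters, scalings, limma settings, a replicate block and each library left out.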

Additional observations from a re-analysis of the deposited data

How the results depend on the processing

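No member passed an adjusted p of 0.05 in limma under any of 15 alternatives that gave it a value (132 values, smallest adjusted p 0.270), and Stim1, Stim2 and Mcu kept their sign in all of them. The IP3 receptors had no value with a mean TPM of at least 5. Over all genes the adjusted test called 2 higher and 11 lower with a pseudocount of 5, 1 and 6 with a mean TPM of at least 5, and 1 and 1 without the trend, against 0 and 0; Sfpq had an adjusted p of 0.0431 in the first (log2 difference −1.39) and 0.0445 in the second (−1.57). Unadjusted counts, 334 higher and 1199 lower, were 787 and 662 after median-of-ratios scaling, 694 and 677 after quantile normalization and 563 higher without a filter, and ran from 209 to 615 and from 650 to 1266 with a library left out.

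At an unadjusted p under 0.05, 1 member (Stim2) was higher after either scaling, and with a library left out 0 to 1 were higher and 0 to 1 lower. Members whose groups did not overlap numbered 0 to 2 lower and 0 to 1 higher with a library left out. Signs turned after median-of-ratios scaling for Orai1 (0.078), Orai3 (0.0040), Micu2 (0.031), Micu3 (0.030) and Capzb (0.0041), and after quantile normalization for Orai1 (0.035) and Micu3 (0.070). With a library left out they turned within these ranges: Itpr1 −0.23 to 0.0063, Itpr2 −0.30 to 0.031, Itpr3 −0.12 to 0.22, Orai1 −0.053 to 0.054, Micu2 −0.11 to 0.0059, Micu3 −0.093 to 0.055 and Smdt1 −0.13 to 0.099. The 20 list and likeness genes had 297 values under alternatives, 0 with an adjusted p under 0.05 (smallest 0.115). The cause was not tested.

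Libraries with the same number did not deviate together (correlations of −0.26, −0.25 and 0.049), while those with other numbers ran from −0.27 to 0.41. Deviations from a mean of 3 sum to 0 within a group, so these values cannot exclude a pairing, and the labels state none. With the replicate block 1 member, Mcu, was lower at an unadjusted p under 0.05 (limma adjusted p = 0.561), and 0 genes passed over all. Unknown depth leaves the error of the IP3 receptors, at 1 to 4 TPM, to be judged from the libraries alone.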
